A study of Mus musculus with 6 samples.

Results

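High mobility group (HMG) proteins are abundant non-histone proteins of chromatin, and the genes described here are 8, chosen by symbol: Hmgb1, Hmgb2 and Hmgb3 (HMG box proteins), Hmgn1, Hmgn2, Hmgn3 and Hmgn5 (nucleosome-binding proteins) and Hmga1 (an AT-hook protein). All 8 symbols were found among the 49997 rows of the count table, and 6 of them passed the filter on low counts and were tested. Hmgb3 and Hmgn3, with 61 and 54 counts summed over all libraries, did not pass it and are given as values. The cells were small pre-B cells, obtained by flow sorting of bone marrow from C57BL/6 mice aged 6 to 12 weeks, and their ribosome-depleted total RNA was sequenced. One group was wild type (WT, 3 libraries) and the other carried the ΔrsCBE genotype, labelled rsCBE (3 libraries). The labels name no treatment and no other allele in either group, do not give the deleted interval, and do not say how many mice contributed to a library. P-values therefore measure the spread between these libraries, which may be in part technical.

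HMGB proteins bend DNA through their HMG boxes and carry an acidic tail. Hmgb1 and Hmgb2 encode the proteins that help the Rag recombinase bind and cut the recombination signal sequences of antigen receptor genes, a step that small pre-B cells carry out at their light chain loci. HMGN proteins bind the nucleosome core and counteract compaction by linker histone H1, and Hmga1 protein binds the minor groove of AT-rich DNA. Hmgb2 transcript is known from many cell types to be more abundant in dividing than in resting cells.

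Total counts per library ranged from 428106 to 1300805, and the 8 genes together received 254 to 738 counts in a library. In CPM (a gene's count scaled to a common library size, with TMM factors) the floor of 3 counts equals 2.32 to 7.17, depending on the library. The B-lineage markers were present in all 6 libraries, with summed levels of 9487 to 11365 CPM over 9 genes. Of 7 erythroid markers 6 had no count and the summed level was at most 0.77 CPM, and of 8 T and NK cell markers 6 had no count, with a summed level of at most 2.46 CPM. The 8 myeloid markers summed to 51.7 to 81.2 CPM in WT and to 53.1 to 66.4 CPM in rsCBE. Itgam alone gave 50.2 to 81.2 CPM of that in WT and 46.0 to 59.4 CPM in rsCBE, and Elane, S100a8 and Ly6g had no count. Lyz2 (2, 4 and 2 counts) and S100a9 (2, 1 and 3 counts) were counted in the rsCBE libraries and in no WT library, and their part in the results was not tested. The 4 plasma cell markers summed to 95.6 to 117 CPM in WT and to 116 to 143 CPM in rsCBE. Among them Sdc1 had means of 61.2 and 63.8 CPM. Xbp1 had 37.7 CPM in WT and 55.8 CPM in rsCBE without overlap, as had 16.2% of all tested genes. The following features of the libraries touch the results below. Transcripts of Xist (1603 and 1430 counts) together with no count of 4 Y-linked genes marked rsCBE replicates 2 and 3 as female, whereas the 3 WT libraries and rsCBE replicate 1 had a male pattern. The G2 and M phase genes were lower in rsCBE, as given beside Hmgb2.

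The upstream sequences of the HMGB genes are shown first, because Hmgb2 and Hmgb1 are the cofactor pair. Their fitted changes, of opposite sign and neither past the threshold, were known at this choice. A link between these sequences and the levels was not tested. Each sequence is the 250 bases before an annotated start, 5′ to 3′ on the gene's strand, from RefSeq on GRCm38.p6: Hmgb2 at chr8:57511593-57511842 (plus strand), Hmgb1 at chr5:149053058-149053307 (minus strand, the outer of its 2 listed starts) and Hmgb3 at chrX:71555667-71555916 (plus strand). Capitals mark the CCAAT box (CCAAT) and the cell cycle homology element (CHR, TTTGAA), each searched on both strands.
Hmgb2: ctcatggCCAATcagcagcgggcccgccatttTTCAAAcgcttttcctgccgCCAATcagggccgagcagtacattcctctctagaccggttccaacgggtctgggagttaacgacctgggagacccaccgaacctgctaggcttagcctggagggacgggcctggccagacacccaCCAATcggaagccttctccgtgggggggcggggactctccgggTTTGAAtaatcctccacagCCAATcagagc
Hmgb1: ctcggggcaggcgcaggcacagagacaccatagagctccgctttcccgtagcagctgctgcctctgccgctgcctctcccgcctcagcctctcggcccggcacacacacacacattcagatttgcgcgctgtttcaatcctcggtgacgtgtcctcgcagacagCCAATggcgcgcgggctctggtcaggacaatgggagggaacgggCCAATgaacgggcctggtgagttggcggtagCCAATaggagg
Hmgb3: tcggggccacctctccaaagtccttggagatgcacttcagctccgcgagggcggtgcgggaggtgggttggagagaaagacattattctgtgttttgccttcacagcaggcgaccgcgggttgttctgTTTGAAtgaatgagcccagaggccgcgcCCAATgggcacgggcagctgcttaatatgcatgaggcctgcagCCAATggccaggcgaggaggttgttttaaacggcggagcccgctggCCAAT
Hmgb2 held 4 CCAAT boxes, at 243, 198, 73 and 11 bases before the start, and 2 CHR matches, at 218 (reverse strand) and 30 bases before it. Hmgb1 held 3 CCAAT boxes, at 86, 42 and 11 bases, and no CHR match at this start, and its inner start held neither motif. Hmgb3 held 3 CCAAT boxes, at 94, 51 and 5 bases, and 1 CHR match at 122 bases. RefSeq promoters were matched for 7 of the 8 members, not for Hmgn3, in windows of 300 bases from 250 before to 50 after the start. Among these, 6 held a CCAAT box and 2, Hmgb2 and Hmgb3, held a CHR match. Over all 27025 genes with a promoter in the table, 41.1% held a CCAAT box and 20.2% a CHR match in at least 1 listed window. Of the 18 G2 and M phase genes with a window, 16 held a CCAAT box and 13 a CHR match. The E2F cores TTCCCGC and TTGGCGC, also searched on both strands, were in none of the member windows and in 5.29% and 2.85% of all genes. Read on the reverse strand, TTGGCGC can share bases with a CCAAT box. These matches describe letters in a window and are not evidence of binding.

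None of the 6 tested members passed the threshold, set at 0.05 for the adjusted p of edgeR's quasi-likelihood test (Benjamini-Hochberg, over all 7792 tested genes). Across all genes 1.69% did. At an unadjusted p-value under 0.05 the count was 1 of 6, Hmgb2, against 10.2% of all genes. With the DESeq2 Wald test 0 of 6 passed. Of the 6, 4 had a negative and 2 a positive fitted log2 fold change (rsCBE against WT), with a median of -0.33 beside 0.01 for all tested genes. WT and rsCBE libraries were fully separated in CPM for Hmgn1 and Hmgn2, that is for 2 of the 6, which was true of 16.2% of all tested genes. Summed over the 8 genes the level was 498, 607 and 570 CPM in the WT libraries (replicates 1 to 3) against 497, 553 and 519 CPM in rsCBE replicates 1 to 3, so the groups overlapped.

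**Figure D1:**
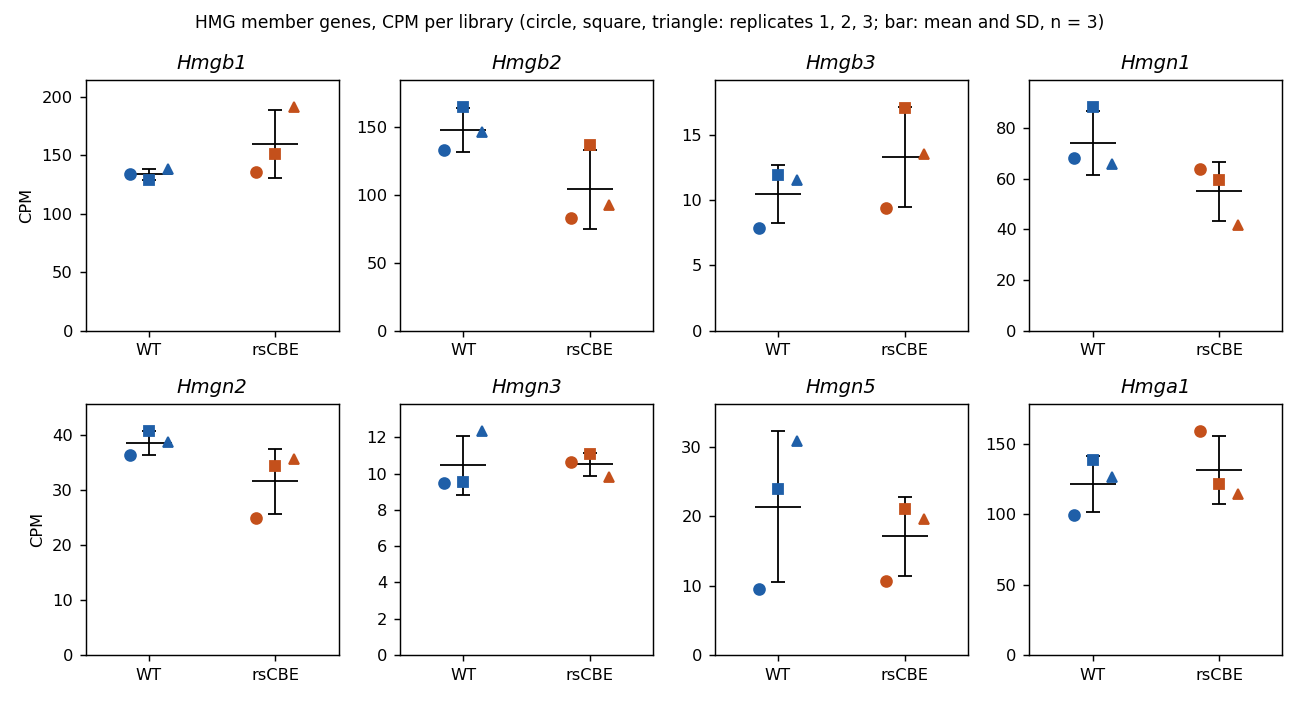
CPM of each of the 8 members (vertical axis, starting at 0, a separate scale per gene) in the 3 WT and 3 rsCBE libraries (horizontal axis); symbols are replicates, and the long bar with whiskers is the mean and SD (n = 3). Hmgb2 was lower in 2 of the 3 rsCBE libraries, and Hmgn1 and Hmgn2 are the genes whose groups do not overlap.

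Hmgb2 (chromosome 8, 57511907 to 57515999, plus strand, GENCODE M21 on GRCm38) measured 133, 165 and 146 CPM in WT (replicates 1 to 3 in order) against 82.6, 137 and 92.2 CPM in rsCBE. Replicates 1 and 3 of rsCBE lay below every WT library, whereas rsCBE replicate 2 lay just above WT replicate 1, so the groups overlapped by that 1 library. The means were 148 ± 16.2 CPM in WT and 104 ± 29.0 CPM in rsCBE (SD, n = 3). The log2 fold change was -0.48 (SE, standard error, 0.18) with an approximate 95% interval from -0.83 to -0.13 (adjusted p = 0.257 in edgeR). Hmgb2 thus did not pass the threshold over all genes. Without rsCBE replicate 2 it did, at a log2 fold change of -0.74 (adjusted p = 0.0141 in edgeR). It also passed when only the male-pattern libraries were compared, 3 WT against rsCBE replicate 1 alone (-0.82, adjusted p = 0.0310 in edgeR), which assumes that the lone library varies like the WT libraries. With sex as a covariate, a fit that rests on the same library, the value was -0.83 (adjusted p = 0.106 in edgeR). Over the 15 alternative settings in which Hmgb2 was fitted the value stayed negative, from -0.83 to -0.34, with adjusted p from 0.0141 to 0.644 (edgeR or DESeq2). Its counts were 69 to 189 per library, for which counting error alone is 7.27% to 12.0%.

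The level of Hmgb2 is given here beside genes of the G2 and M phases. Of 22 such genes 20 were tested and 18 were lower in rsCBE past the threshold (edgeR), against 1.49% of all genes called lower, with a median log2 fold change of -1.19. Their summed level was 6594, 7447 and 7033 CPM in the WT libraries (replicates 1 to 3) against 2813, 4401 and 2743 CPM in rsCBE replicates 1 to 3. The rsCBE library with the highest sum, replicate 2, was also the one with the highest Hmgb2, and the WT libraries had the same order in both. In rsCBE the lowest sum was in replicate 3 and the lowest Hmgb2 in replicate 1. Across groups, rsCBE replicate 2 had slightly more Hmgb2 than WT replicate 1 (137 against 133 CPM) at a lower sum. The 18 genes were Mki67, Top2a, Ccna2, Aurka, Aurkb, Bub1, Bub1b, Plk1, Birc5, Cdc20, Cenpe, Cenpf, Tpx2, Kif11, Kif20a, Kif23, Nusap1 and Hmmr. Kif11, a mitotic kinesin, had a log2 fold change of -1.08 (SE 0.17, adjusted p = 0.000945 in edgeR), and Top2a, a topoisomerase of dividing cells, had -1.19 (SE 0.19, adjusted p = 0.00715 in edgeR). The count of 18 was 11 with the sex covariate, 11 without WT replicate 3 and 12 without rsCBE replicate 3. Of 20 S phase genes 18 were tested, with a median of -0.47, close to the value of Hmgb2. A negative fitted value was found for 17 of the 18. At an unadjusted p-value under 0.05 the count was 11 of 18 in edgeR, against 10.2% of all genes. Past the threshold 2 were lower, against 1.49% of all genes called lower. These were Rrm2, a subunit of ribonucleotide reductase (-0.87, adjusted p = 0.00694 in edgeR), and Uhrf1, a partner of maintenance DNA methylation (-0.70, adjusted p = 0.0214 in edgeR). The count of called S phase genes was 1 without WT replicate 1 or WT replicate 3, 0 without rsCBE replicate 3 or with the sex covariate, and 5 without rsCBE replicate 2. In sorted bulk cells, fewer dividing cells and less of these transcripts per cell cannot be told apart, and the part of cell division in the Hmgb2 values was not tested.

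**Figure D2:**
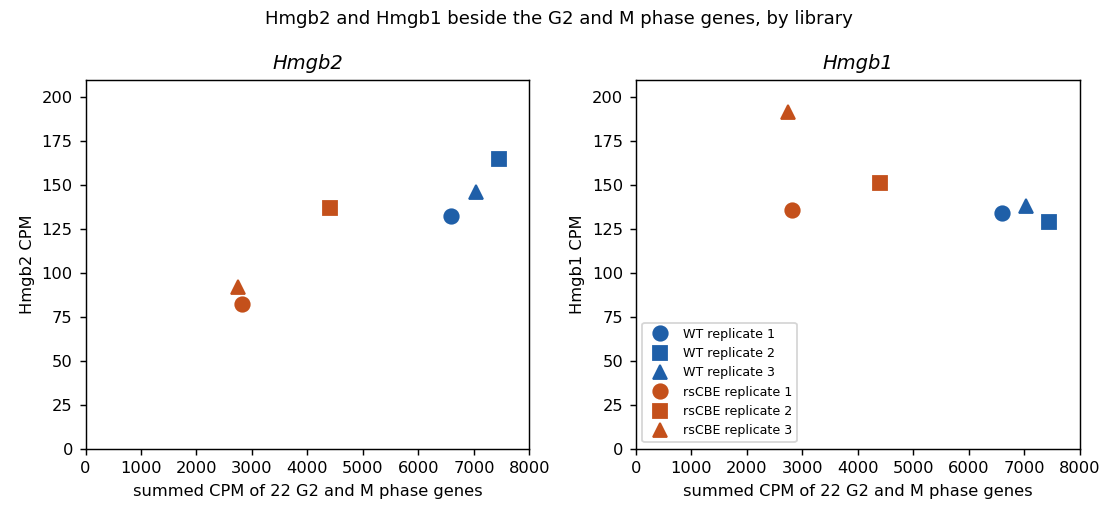
Level of Hmgb2 (left) and Hmgb1 (right) in CPM against the summed CPM of 22 G2 and M phase genes in each of the 6 libraries, coloured by genotype with 1 symbol per replicate number; all axes start at 0. Hmgb2 was lowest in the 2 rsCBE libraries with the lowest sums, and Hmgb1 was highest in rsCBE replicate 3, which had the lowest sum.

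Hmgb1 (chromosome 5, 149046702 to 149184489, minus strand) measured 134, 129 and 138 CPM in WT (replicates 1 to 3 in order) against 136, 151 and 192 CPM in rsCBE. The WT libraries lay close together, rsCBE replicate 1 lay among them, and rsCBE replicate 3 was the highest of all. The means were 134 ± 4.63 CPM in WT and 159 ± 29.0 CPM in rsCBE (SD, n = 3), a log2 fold change of 0.24 (SE 0.16) with an approximate 95% interval from -0.06 to 0.55 (adjusted p = 0.654 in edgeR). The difference was within the spread of the rsCBE libraries. It was 0.09 without rsCBE replicate 3 and 0.01 with the sex covariate. Here and for every other gene, the fit with the sex covariate rests on rsCBE replicate 1, the only male rsCBE library.

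The balance within the HMGB family was compared directly. The log2 ratio of Hmgb2 to Hmgb1 CPM (prior count of 2) was -0.02, 0.35 and 0.08 in the WT libraries (replicates 1 to 3) against -0.70, -0.14 and -1.04 in the rsCBE libraries. All rsCBE libraries lay below all WT libraries. The means were 0.14 ± 0.19 and -0.63 ± 0.45 (SD, n = 3), a difference of -0.76 for which the exact permutation test (two-sided) gave p = 0.1, the smallest that 3 against 3 libraries allow, and 0.2 after adjustment over the 2 ratios tested. Expressed as a share of the counts of the 3 HMGB genes, Hmgb2 took 48.3%, 53.9% and 49.3% in WT and 36.3%, 44.9% and 31.0% in rsCBE. Hmgb1 took 48.9%, 42.2% and 46.7% in WT and 59.6%, 49.5% and 64.5% in rsCBE.

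Hmgb3 (X chromosome, 71555918 to 71560676, plus strand), the family member known from blood progenitors, was sparse. It had 7.90, 11.9 and 11.6 CPM in WT replicates 1 to 3, from 5, 5 and 15 counts, and 9.44, 17.1 and 13.5 CPM in rsCBE replicates 1 to 3, from 8, 17 and 11 counts. The 2 highest values belonged to the female libraries, and the groups overlapped. In a fit without the count filter its log2 fold change was 0.35 (SE 0.45, adjusted p = 0.812 in edgeR). Counting error alone was 24.3% to 44.7% per library, and a difference of the size seen for Hmgb2 was not detectable at this depth.

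Among the HMGN genes, Hmgn1 (chromosome 16, 96120618 to 96127729, minus strand) measured 67.9, 88.4 and 65.6 CPM in WT (replicates 1 to 3 in order) against 63.7, 59.4 and 41.8 CPM in rsCBE. The groups did not overlap, but rsCBE replicate 1 and WT replicate 3 differed by less than the spread within either group. The means were 74.0 ± 12.5 and 55.0 ± 11.6 CPM (SD, n = 3), and the log2 fold change was -0.38 (SE 0.21, adjusted p = 0.588 in edgeR). It was -0.23 without rsCBE replicate 3 and -0.17 with the sex covariate, neither past the threshold.

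Hmgn2 (chromosome 4, 133964738 to 133968650, minus strand), whose protein is closely related to that of Hmgn1, measured 36.3, 40.6 and 38.6 CPM in WT (replicates 1 to 3 in order) against 24.8, 34.2 and 35.6 CPM in rsCBE. All rsCBE values lay below the WT values, 2 of them by little. The log2 fold change was -0.28 (SE 0.26, adjusted p = 0.791 in edgeR). It was -0.14 without rsCBE replicate 1 and -0.63 with the sex covariate, neither past the threshold. The log2 ratio of Hmgn2 to Hmgn1 CPM was -0.89 ± 0.18 in WT and -0.75 ± 0.53 in rsCBE (SD, n = 3), for which the exact permutation test (two-sided) gave p = 0.8, also 0.8 after adjustment over the 2 ratios. The direction of this ratio turned to -0.13 without rsCBE replicate 3.

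Hmgn5 (X chromosome, 109004534 to 109013404, minus strand), which encodes an HMGN protein with a long acidic tail, varied most among replicates. It measured 9.48, 23.9 and 30.9 CPM in WT (replicates 1 to 3 in order) against 10.6, 21.1 and 19.7 CPM in rsCBE, so each group held 1 low library and the groups overlapped widely. The fitted log2 fold change of -0.40 (SE 0.38, adjusted p = 0.801 in edgeR) turned to 0.15 without WT replicate 3. The low rsCBE library is the male one, and the 3 WT libraries, all male, spanned the whole range. With the sex covariate the value was -1.10 (adjusted p = 0.529 in edgeR).

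Hmgn3 (chromosome 9, 83109948 to 83146685, minus strand) measured 9.48, 9.56 and 12.4 CPM in WT against 10.6, 11.1 and 9.83 CPM in rsCBE replicates 1 to 3, from 4 to 16 counts a library. The group means were 10.5 ± 1.64 and 10.5 ± 0.628 CPM (SD, n = 3). Without the count filter the fitted value was -0.05 (SE 0.47, adjusted p = 0.983 in edgeR), an error too wide to separate no change from a change as large as that of Hmgn1.

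Hmga1 (chromosome 17, 27556497 to 27563674, plus strand) measured 99.5, 139 and 127 CPM in WT (replicates 1 to 3 in order) against 159, 122 and 114 CPM in rsCBE. The highest library was the male rsCBE replicate 1 and the groups overlapped. The log2 fold change was 0.12 (SE 0.17, adjusted p = 0.882 in edgeR), and it turned to -0.034 without rsCBE replicate 1. It was 0.0067 without WT replicate 1, 0.20 without WT replicate 2, 0.21 without rsCBE replicate 3 and 0.40 with the sex covariate (adjusted p = 0.512 in edgeR for the last). Summed with its near-identical copy Hmga1b (chromosome 11, 120762794 to 120764419, plus strand), it was 0.04 (SE 0.13, adjusted p = 0.965 in edgeR).

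**Figure D3:**
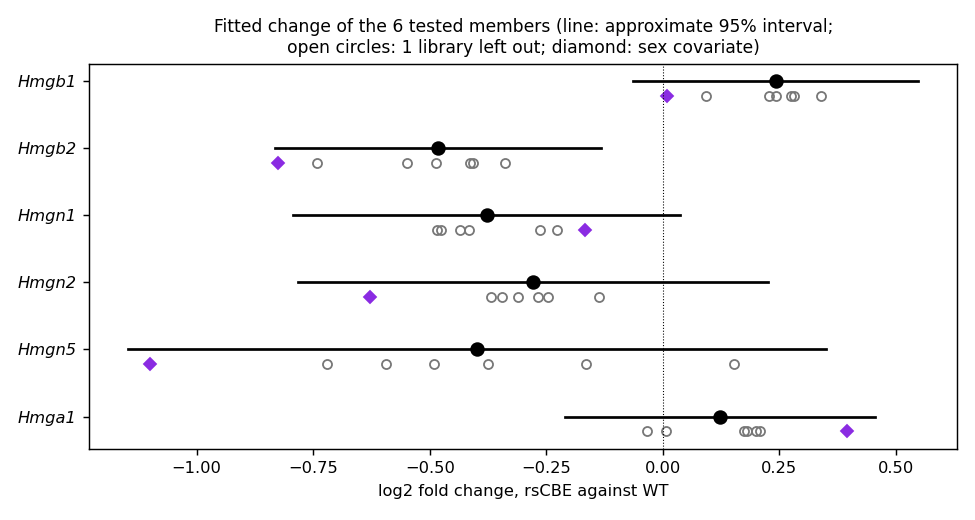
Fitted log2 fold change (horizontal axis, rsCBE against WT) of the 6 tested members; the filled point and line are the 6-library fit with its approximate 95% interval, open circles are the fits with 1 library left out, and the diamond is the fit with a sex covariate. The interval of Hmgb2 is the only one of the 6 that lies wholly on one side of 0, and Hmgn5 and Hmga1 have open circles on both sides.

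Levels were also compared between members per kilobase of annotated exon. In WT the order, as CPM per kilobase (mean ± SD, n = 3), was Hmga1 at 57.2 ± 9.42, Hmgb2 at 49.2 ± 5.38, Hmgb1 at 26.6 ± 0.921, Hmgn1 at 23.0 ± 3.89, Hmgn2 at 12.6 ± 0.701, Hmgn5 at 11.1 ± 5.65, Hmgn3 at 5.60 ± 0.878 and Hmgb3 at 4.69 ± 1.003. Neighbours in this order overlapped in range, except that Hmgb2 lay above Hmgb1 and Hmgn1 above Hmgn2 in every WT library. In rsCBE the level of Hmgb2 was 34.6 ± 9.65 and that of Hmgb1 31.7 ± 5.77 CPM per kilobase, and these overlapped. Hmga1, at 62.0 ± 11.3, lay above both in all rsCBE libraries.

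Members share part of their transcribed sequence with other genes, which bears on the levels above. Of the distinct 50-base words of Hmgb1 transcripts in GENCODE M21, 22.7% also occurred, on either strand, in transcripts of other genes, 132 genes in all. The share was 18.7% for Hmgb2, 25.02% for Hmgb3, 4.33% for Hmgn1, 25.4% for Hmgn2, 9.82% for Hmgn3, 18.6% for Hmgn5 and 55.0% for Hmga1. For Hmgn3 the sharing gene was Gm29054, which overlaps it at its own locus, and for Hmgn5 it was the processed pseudogene Gm11914. The median over the 85 tested genes of the related lists that GENCODE M21 holds under the same symbol was 1.38% (quartiles 0 and 7.31%). How reads that fit several places were counted is not given in the sources used here, so these counts are uncertain by an amount that cannot be read from the table.

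Some copies carried counts of their own. Hmga1b, which holds 55.0% of the Hmga1 words, had 689 counts over the 6 libraries against 634 for Hmga1. The place of Hmga1 in the order per kilobase may therefore depend on how shared reads were counted. The pseudogene Gm4739, which holds 16.7% of the Hmgb2 words, had 103 counts over the 6 libraries against 623 for Hmgb2, with a log2 fold change of -0.62 (SE 0.41, adjusted p = 0.666 in edgeR). Summing both entries gave -0.50 (SE 0.17, adjusted p = 0.192 in edgeR). The pseudogene Gm21596 holds 20.2% of the Hmgb1 words but had 1 count. The pseudogene Gm12568, with 2.66% of them, had 257 counts against 739 for Hmgb1, and the sum of both had a log2 fold change of 0.17 (adjusted p = 0.771 in edgeR). The 13 rows named as Hmgb1 pseudogenes, related sequences or Hmgb1l held 104 counts in all. For Hmgb3 the pseudogene Gm6104, with 17.5% of its words, had 58 counts, nearly as many as Hmgb3 itself. Several members also overlap other annotated genes: Hmgb1 overlaps Uspl1 and 4 noncoding genes on the opposite strand and Mm2pr and Gm8615 on its own strand, Hmgn5 overlaps the small nuclear RNA gene Gm23322 on its own strand, Hmga1 overlaps AI413582 and Gm49774 on the opposite strand, and Hmgn3 overlaps Gm2065 and Gm29054 on the opposite strand. Whether strand was used in counting is not given in the sources used here, and strand would not separate the overlaps on the same strand.

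The linker histones, which HMGN and HMGB proteins counteract on the nucleosome, were compared as a list of 7 genes found in the table, of which 6 were tested. H1f1 (-0.81, SE 0.19, adjusted p = 0.0324 in edgeR) and H1f3 (-0.55, SE 0.14, adjusted p = 0.0483 in edgeR) fell past the threshold. That is 2 of 6, against 1.49% of all genes called lower, and the median of the 6 was -0.41. H1f1 had 273, 234 and 317 CPM in WT and 109, 213 and 152 CPM in rsCBE replicates 1 to 3, with all rsCBE libraries below WT. The other 4 tested genes, named after their values were seen, were H1f5 (-0.75), H1f2 (-0.28), H1f0 (-0.25) and H1f4 (0.15), at edgeR adjusted p of 0.0659, 0.324, 0.889 and 0.968. H1f4 spanned 516 to 1386 CPM among the rsCBE libraries alone. Among the rsCBE libraries replicate 2 was the highest for 5 of the 6 tested genes, as for Hmgb2, whereas H1f0 was highest in replicate 1 (37.8 CPM, against 18.1 and 12.3 in replicates 2 and 3). The count of 2 fell to 0 without WT replicate 1, WT replicate 3 or rsCBE replicate 3, and to 1 with scaling by library size alone. The rules of counting among these similar genes are not known, and reads may be divided between them. The part of HMG proteins or of cell division in the linker histone values was not tested.

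Of 29 other genes with an HMG box or HMG name, 18 were tested, with a median of -0.02. At an unadjusted p-value under 0.05 the count was 5 of 18 in edgeR, against 10.2% of all genes. None of the 18 passed the threshold in edgeR. DESeq2 called none of them lower. By level these were led by Sox4, an HMG box transcription factor of B-cell progenitors (0.28, adjusted p = 0.350 in edgeR), Pbrm1, a subunit of the PBAF remodeller (-0.29, adjusted p = 0.247 in edgeR), Cic, a repressor (0.11, adjusted p = 0.808 in edgeR), and Ssrp1, a subunit of the histone chaperone FACT (-0.29, adjusted p = 0.362 in edgeR). The widest values, singled out after they were seen, were those of Tcf7l2 (-1.30, SE 0.39, adjusted p = 0.104 in edgeR) and Lef1 (0.67, SE 0.23, adjusted p = 0.214 in edgeR). Both are HMG box factors of the Wnt pathway. Tcf7l2 had only 5 to 30 counts a library, and Lef1 had 17 to 69. Of the 5 genes of the SET complex, in which Hmgb2 protein is found, 3 were tested, all with negative values and none past the threshold (edgeR): Anp32a at -0.32, Set at -0.33 and Nme1 at -0.05, with adjusted p-values of 0.426, 0.711 and 0.985. At an unadjusted p-value under 0.05 the count was 1 of 3, Anp32a, against 10.2% of all genes.

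The recombinase that Hmgb1 and Hmgb2 assist was measured in the same libraries. Rag1 had 2515, 3452 and 3530 CPM in WT and 3116, 3710 and 3607 CPM in rsCBE replicates 1 to 3, and Rag2 had 125, 136 and 130 CPM in WT and 105, 132 and 116 CPM in rsCBE, so the groups overlapped for both. Of 14 recombination and end-joining genes 11 were tested and none passed the threshold (edgeR), with a median of -0.02. At an unadjusted p-value under 0.05 the count was 1 of 11, against 10.2% of all genes. The end-joining genes with the highest levels were Xrcc6 (-0.11), Polm (0.32) and Lig4 (-0.04), at edgeR adjusted p of 0.851, 0.397 and 0.972. Outside the cell, Hmgb1 protein is sensed by several receptors and receptor partners. Of 9 genes in that list 4 were tested and none passed the threshold (edgeR). Ager, Tlr2, Tlr4, Cxcl12 and Havcr2 did not pass the filter on low counts, with at most 5 counts a library. Whether those genes changed cannot be read here. At an unadjusted p-value under 0.05 the count was 1 of 4, against 10.2% of all genes. That gene was Cd24a (-0.25, adjusted p = 0.268 in edgeR), and the others were Siglecg (0.10), Cxcr4 (0.07) and Tlr9 (0.26), at edgeR adjusted p of 0.793, 0.909 and 0.774.

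**Figure D4:**
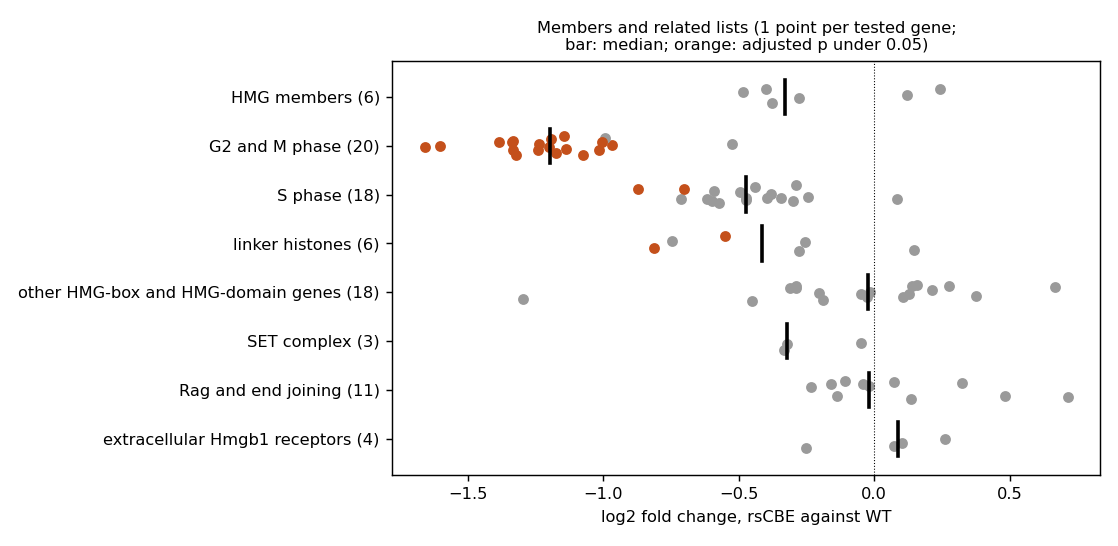
Fitted log2 fold change (horizontal axis, rsCBE against WT) of each tested gene in the HMG members and in 7 related lists (rows, number of tested genes in brackets); the bar is the list median and orange marks an adjusted p-value under 0.05 by edgeR. The member median of -0.33 lies between the S phase median of -0.47 and the median of the other HMG-box genes at -0.02, and no member is orange.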

How the data were processed

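RNA was measured in 6 libraries, with groups taken from the genotype label and columns from the library name. The deposited table holds whole-number read counts per gene symbol, not normalized by the authors. The submitters' processing notes name Trim Galore 0.6.10, STAR 2.7.11, HTSeq, DESeq2 and the build mm10, with no settings. Per the labels' protocols, ribosomal RNA was depleted and libraries were made with a stranded total RNA kit.

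Counts were tested with edgeR 4.0.16 in R 4.3.3 (filterByExpr with a minimum count of 10, TMM, robust glmQLFit, glmQLFTest, genotype only), with Benjamini-Hochberg adjustment over all genes. Standard errors come from the quasi-likelihood F statistic. The fit was tested on simulated data. DESeq2 1.42.0 was an alternative. The 95% intervals are approximate. They use a normal quantile, which can make them too narrow with 3 libraries per group, and their coverage was not tested. Counting errors do not cover variation before counting. Alternatives covered scaling, filter, threshold, each library left out, the replicate block, a sex covariate, the prior count (0.5) and, added after seeing the data, male-pattern libraries only, 3 sums with copies and the list counts by setting. With the sex covariate the genotype term rests on rsCBE replicate 1, since both female libraries are rsCBE.

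Members and lists were chosen with earlier results of these data known. Named genes are all members, list genes past the threshold and otherwise, in lists with none, up to 4 by level. Outside this rule, Rag2, Tcf7l2, Lef1, 4 linker histones, the untested receptor genes and the copies were named after their values were seen. Coordinates and exon lengths come from GENCODE M21 (GRCm38, the same assembly as mm10), promoters from RefSeq. Protein sequences were not used here.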

Additional observations from a re-analysis of the deposited data

How the results depend on the processing

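No member passed the threshold under any alternative in scaling, test, filter, threshold or pairing, or with the sex covariate. The count was 0 to 1 when 1 library was left out, the 1 being Hmgb2 without rsCBE replicate 2, and 1, again Hmgb2, in the male-pattern libraries alone. In that last fit 174 genes passed, 94 of them among the 132 of the 6-library fit. The count over all genes, 132, was 87 with the sex covariate and 59 to 187 with 1 library left out, the lowest without WT replicate 3 and equally without rsCBE replicate 3, fits that have fewer samples. Hmgn5 ranged from -0.72 to 0.15 and Hmga1 from -0.034 to 0.21 when 1 library was left out, each turning sign once. The log2 ratio of Hmgn2 to Hmgn1 ranged from -0.13 to 0.40 in the same way, and the cause was not tested. That of Hmgb2 to Hmgb1 stayed negative, from -1.005 to -0.56. Of 87 fitted values of single members under alternatives, 83 kept their direction and side of the threshold, 2 turned sign and 2, both of Hmgb2, newly passed. The replicate numbers are shared by the groups, and the labels do not say whether they pair the libraries. Correlations of deviations across genes were 0.01, 0.02 and 0.01 for same-numbered libraries. For the other pairs of a WT and an rsCBE library they ran from -0.05 to 0.03. With 3 libraries per group and counting error at this depth, these values cannot decide whether the libraries were paired. With the replicate block 136 genes and 0 members passed, 117 of the genes shared with the fit without it, and no member's call changed. Depth limits Hmgb3, Hmgn3 and Hmgn5, with at most 17, 16 and 40 counts a library.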

Other observations

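By the naming rule no gene was to be listed as alike in pattern, since no member passed the threshold. The closest genes to Hmgb2 were looked up after its values were seen, as a description over 6 libraries, in which correlated genes also share the genotype groups and the depth of each library, among 6355 other tested genes with a mean of at least 20 CPM. The 5 highest Pearson correlations of log2 CPM belonged to Bora (0.994), an activator of mitotic kinases, Foxm1 (0.984), a transcription factor of G2 and M phase genes, Parpbp (0.983), Tmem164 (0.981) and Gm21399 (0.979). Their log2 fold changes were -0.78, -0.73, -0.96, -0.31 and -0.94, at adjusted p of 0.426, 0.0642, 0.225, 0.345 and 0.0519 in edgeR, and none passed the threshold. The 5 closest genes of Hmgb1 were Gxylt1, Zdhhc14, Mknk2, Cited2 and Man1a, with correlations of 0.960 to 0.983, which shows how high the top of such a list lies with 6 libraries.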
